A study of Homo sapiens with 3 samples.

Results

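The 10 genes described here are negative regulators and transcription factors that FGF receptor and ERK signalling switches on: the phosphatases DUSP4, DUSP5 and DUSP6, the Sprouty genes SPRY1, SPRY2 and SPRY4, the Spred genes SPRED1 and SPRED2, and the ETS factors ETV4 and ETV5. They were taken by name from the 26108 genes of an mRNA‐seq experiment on LX‐2 cells, by a rule that held no measured value, although earlier results of these data were known. The LX‐2 line is established and derives from human hepatic stellate cells (HSCs), the mesenchymal cell type that lays down matrix in the injured liver. The experiment held 1 library of cells given vehicle, without FGF19, 1 of cells given recombinant human FGF19 (rhFGF19) at 50 ng/mL and 1 at 100 ng/mL, to ask how FGF19 changed gene expression. The doses follow the sample titles, because another field of the sample records exchanged them. The stimulation lasted 24 h by the study design and 72 h or 73 h by that same field. No condition was replicated, so every difference below is between single libraries, has no replicate check and carries no p value, and the vehicle library and the absence of rhFGF19 cannot be told apart.

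FGF19 is a gut hormone of the FGF family that signals through FGF receptors, FGFR4 with the co‐receptor β‐Klotho (KLB) foremost in liver cells. An active FGF receptor loads RAS with GTP, and RAF, MEK and ERK are then switched on in turn. ERK activity raises transcription of its own brakes: dual‐specificity phosphatases remove the activating phosphates from ERK, and Sprouty and Spred proteins act on RAS and RAF. ETV4 and ETV5 are PEA3‐type ETS factors that are widely read as targets of FGF signalling.

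Promoter sequence was examined for the Sprouty genes because this family held the widest contrast in level among the 10 genes, with SPRY2 well detected and SPRY1 close to 0. RefSeq windows on GRCh38.p14, running from 250 bases before to 50 bases after a transcription start, were found for 6 of the 10 genes, namely DUSP6, SPRED1, SPRED2, SPRY1, SPRY2 and SPRY4. No window was found for DUSP4, DUSP5, ETV4 or ETV5. The 250 bases before the outermost start of SPRY2 (minus strand, chr13:80341127-80341376) and of SPRY1 (plus strand, chr4:123396545-123396794) are given 5′ to 3′. Neither stretch overlapped an annotated exon of its own gene, and each ended at the edge of that gene in the deposited table. Exons of other genes were not checked. Capitals mark each GGAA or its reverse complement TTCC, the core that ETS factors read.
SPRY2: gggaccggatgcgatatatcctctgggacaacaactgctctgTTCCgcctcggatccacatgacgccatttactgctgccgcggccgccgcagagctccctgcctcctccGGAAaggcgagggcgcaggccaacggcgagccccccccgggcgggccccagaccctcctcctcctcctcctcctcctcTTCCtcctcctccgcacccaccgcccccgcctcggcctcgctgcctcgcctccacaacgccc
SPRY1: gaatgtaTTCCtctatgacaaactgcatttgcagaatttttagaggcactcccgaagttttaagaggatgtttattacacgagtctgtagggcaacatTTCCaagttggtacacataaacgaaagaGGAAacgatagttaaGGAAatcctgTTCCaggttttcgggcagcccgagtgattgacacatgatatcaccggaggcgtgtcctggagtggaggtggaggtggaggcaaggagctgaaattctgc

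The stretch of SPRY2 held 3 such cores and that of SPRY1 held 5. A GGAA core on either strand was present in 95.5% of all 35116 RefSeq windows, with a median of 3 matches, so its presence did not set these genes apart. The longer ETS motif CCGGAAG, searched on both strands and overlapping the core, was found in 10.3% of all windows and, among the 10 windows of these genes, in 1, at a second start of SPRY1. The AP‐1 motif TGANTCA (7.71% of all windows) matched at a second start of SPRED2, and the STAT motif TTCNNNGAA (7.66%) at the second start of SPRY1. Neither the CRE motif TGACGTCA (1.85%) nor the CArG box (1.29%) matched in any of the 10 windows. These matches describe letters in the windows and are not evidence of binding.

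In vehicle‐treated LX‐2 cells, the ETS factors and DUSP5 stood far above the other genes. Levels are given as deposited, in FPKM (fragments per kilobase of transcript and per total of mapped fragments), which divides by length. FPKM does not correct for GC content, along which fold changes between these libraries varied, so the order of genes holds for the vehicle library as deposited. The order in vehicle was ETV4 (40.22 FPKM), DUSP5 (27.57), ETV5 (12.73), DUSP6 (4.66), DUSP4 (4.07), SPRY2 (3.28), SPRY4 (2.98), SPRED2 (2.29), SPRED1 (1.94) and SPRY1 (0.02). ETV4 lay at percentile 89.4 and DUSP5 at percentile 85.6 of the 12447 genes whose FPKM averaged 0.5 or more over the 3 libraries, whereas SPRED1 lay at 43.6. With 1 library there is no spread against which neighbours such as SPRY2 and SPRY4 could be ordered. Of the 10 genes, 9 passed this filter on the mean, and each of the 9 was already above it in vehicle. SPRY1 did not pass.

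**Figure D1:**
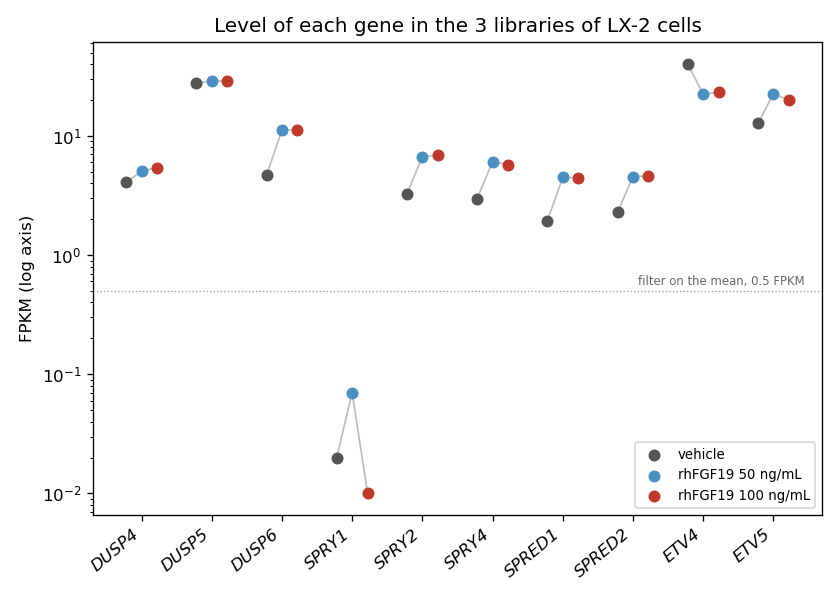
Level of each of the 10 genes in FPKM on a log axis, with 1 point per library (grey, vehicle; blue, rhFGF19 50 ng/mL; red, rhFGF19 100 ng/mL) and the dotted line at the filter of 0.5 FPKM. ETV4 had its highest value in vehicle (40.22), 7 genes had lower values in vehicle than in either rhFGF19 library by at least 1.24‐fold, DUSP5 stayed between 27.57 and 29.07, and SPRY1 lay below 0.1 in all 3.

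Among the phosphatases, DUSP6 differed most between vehicle and rhFGF19. DUSP6, the cytosolic phosphatase that is selective for ERK, read 4.66 FPKM in the vehicle library, 11.19 in the 50 ng/mL library and 11.28 in the 100 ng/mL library. Both rhFGF19 libraries were high and close to each other, at 2.37‐fold and 2.39‐fold the vehicle value. DUSP4, an inducible nuclear phosphatase, read 4.07, 5.07 and 5.42 FPKM in the same order, which is 1.24‐fold and 1.32‐fold vehicle. DUSP5, the nuclear phosphatase that holds ERK in the nucleus, read 27.57, 29.07 and 28.69 FPKM and was nearly level across the 3 libraries. Fold changes were taken as differences in log2(FPKM + 0.1), a scale that understates them for genes of low level. The differences from vehicle at 50 and 100 ng/mL were 1.25 and 1.26 for DUSP6, 0.31 and 0.40 for DUSP4, and 0.076 and 0.057 for DUSP5. DUSP6 was above 0 under every one of the 11 alternative settings that give a fold change. Among these, the changed filters left each fold change as it was, and a changed pseudocount cannot turn its sign. Rescaling to TPM and setting the median of genes of at least 1 FPKM to 0 shifted all genes by about the same amount. That shift was smaller than the difference of DUSP6. DUSP4 lay below 0 at both doses under 3 of the 11 settings and DUSP5 under 4, most of which removed a trend on GC content or length. DUSP4 spans chr8:29333064-29350684 (ENSG00000120875), DUSP5 chr10:110497907-110511533 (ENSG00000138166) and DUSP6 chr12:89347235-89352501 (ENSG00000139318). A lowly listed gene on the strand opposite to DUSP6, AC024909, read at most 0.42 FPKM, and whether counting used strand is not given in the sources used here.

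The expressed Sprouty genes were about 2‐fold higher with rhFGF19 as deposited, although SPRY2 lay below 0 once a trend on median GC content was removed. SPRY2, a Sprouty protein known as a brake on RAS and RAF signalling from FGF receptors, read 3.28 FPKM with vehicle and, in order of dose, 6.67 and 6.93 FPKM with rhFGF19. SPRY4, a Sprouty protein that also acts on receptor signalling to ERK, read 2.98, 6.09 and 5.73 FPKM. Vehicle was the low library for both genes, and neither separated the doses by more than 0.086 on the log2 scale. SPRY1, a further Sprouty, read 0.02, 0.07 and 0.01 FPKM, levels too close to 0 to be compared. The log2 differences from vehicle at 50 and 100 ng/mL were 1.0 and 1.06 for SPRY2 and 1.01 and 0.92 for SPRY4, so SPRY2 at 50 ng/mL and SPRY4 at both doses sat at the edge of the 2‐fold criterion. Transcripts listed opposite to SPRY4 were low, with SPRY4-AS1 at 0.17, 0.14 and 0.23 FPKM. The ratio of SPRY2 to SPRY4 was 1.10, 1.10 and 1.21 in the same order. The genes span chr13:80335976-80341126 (SPRY2, ENSG00000136158), chr5:142310427-142326455 (SPRY4, ENSG00000187678) and chr4:123396795-123403755 (SPRY1, ENSG00000164056).

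SPRED1 and SPRED2, whose proteins bring the RAS‐inactivating protein neurofibromin to the membrane, were at low levels that were also about 2‐fold higher with rhFGF19 as deposited, although SPRED1 lay below 0 once a trend on GC content was removed. SPRED1 read 1.94 FPKM with vehicle, then 4.50 and 4.44 FPKM with rhFGF19 at 50 and 100 ng/mL. SPRED2 read 2.29, 4.55 and 4.63 FPKM. The vehicle library was low for both, and the rhFGF19 libraries differed by no more than 0.08 FPKM. The log2 differences from vehicle at 50 and 100 ng/mL were 1.17 and 1.15 for SPRED1 and 0.96 and 0.98 for SPRED2, just under the 2‐fold criterion. SPRED1 spans chr15:38252836-38357249 (ENSG00000166068) and SPRED2 chr2:65310851-65432599 (ENSG00000198369).

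The ETS factors lay on opposite sides of vehicle as deposited, ETV4 lower and ETV5 higher. ETV4 was the only one of the 9 genes with a lower value in both rhFGF19 libraries as deposited, with 40.22 FPKM for vehicle against 22.35 and 23.36 FPKM at 50 and 100 ng/mL, or 1.80‐fold and 1.72‐fold lower. Higher values were held by 8 of the 9 genes at each dose, beside 65.4% and 65.6% of all genes that passed the filter. ETV5 read 12.73, 22.62 and 19.89 FPKM, which is 1.77‐fold and 1.56‐fold higher. On the log2 scale ETV4 differed from vehicle by -0.84 and -0.78 and ETV5 by 0.82 and 0.64, and neither reached 2‐fold as deposited. ETV4 passed 2‐fold lower once a trend on transcript length was subtracted (-1.38 and -1.31) and, at 50 ng/mL, with the median of genes of at least 1 FPKM set to 0 (-1.07). ETV4 was 3.16 times as abundant as ETV5 in vehicle, 0.99 times at 50 ng/mL and 1.17 times at 100 ng/mL. ETV4 was below 0 at both doses in all 11 alternative settings, of which the changed filters and pseudocounts could not have turned its sign. Nor could rescaling to TPM or setting that median to 0, which shifted all genes by about the same amount, less than the difference of ETV4. ETV5 was below 0 at 100 ng/mL under the 3 settings that removed a trend on GC content. ETV4 (chr17:43527844-43546340, ENSG00000175832) overlaps DHX8, an RNA helicase gene on the other strand, which read 4.70, 10.52 and 10.40 FPKM. Without a statement on strand, reads from the overlap cannot be told apart. ETV5 (chr3:186046314-186110318, ENSG00000244405) overlaps DGKG on the same strand, which read at most 0.60 FPKM.

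Seen as families, the phosphatases summed to 36.3, 45.3 and 45.4 FPKM in vehicle, 50 and 100 ng/mL. The Sprouty genes summed to 6.28, 12.8 and 12.7 FPKM and the Spred genes to 4.23, 9.05 and 9.07 FPKM. Both brake families were therefore higher in the rhFGF19 libraries as deposited, by 1.02 and 1.0 (Sprouty) and 1.08 at each dose (Spred) on the log2 scale, with SPRY2 and SPRED1 turning below 0 when a GC trend was removed, while the sum of ETV4 and ETV5 was 53.0, 45.0 and 43.3 FPKM. All 10 genes together held 99.8, 112 and 110 FPKM, a difference from vehicle of 0.17 and 0.15 on the log2 scale. Within this total, ETV4 took 40.3% in vehicle and 19.9% and 21.2% with rhFGF19. The share of DUSP6 was 4.67% in vehicle and 9.98% and 10.2% with rhFGF19, and the ratio of DUSP5 to DUSP6 was 5.92, 2.60 and 2.54.

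By the criterion of the study, an absolute log2 fold change above 1, 4 of the 9 genes were higher at 50 ng/mL (DUSP6, SPRY2, SPRY4 and SPRED1), against 39.4% of all genes that passed the filter. At 100 ng/mL the count was 3 of 9 (DUSP6, SPRY2 and SPRED1), against 38.5% of all genes. None of the 9 was more than 2‐fold lower as deposited, where the background was 1.78% of genes for 50 ng/mL and 1.58% for 100 ng/mL. The share of these genes past 2‐fold was thus near the background at both doses. The 9 genes had medians of 0.96 and 0.92 on the log2 scale for 50 and 100 ng/mL, beside 0.62 and 0.61 over all genes that passed. Fold changes also varied with level. Genes within 0.5 log2 units of the mean level of each of the 9 had medians at 50 ng/mL from -0.32 (around DUSP5) to 1.02 (around SPRED1). Under quantile normalization the background itself turned to 9.49% of genes higher and 9.95% lower at 50 ng/mL, the median of all genes was 0.11, and 0 of the 9 genes passed 2‐fold. With the median of genes of at least 1 FPKM set to 0, 30.1% were higher and 6.35% lower at 50 ng/mL, and with the trend on transcript length removed 14.1% were higher and 16.4% lower. Under both settings 1 of the 9 genes, ETV4, was more than 2‐fold lower at that dose.

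Fold changes in these libraries followed the GC content of the transcripts. Across the 12405 genes with a GC value (genes are not independent replicates), the rank correlation of fold change with the median GC content of a gene's listed transcripts was -0.77 at both doses, and 0.068 between the rhFGF19 libraries. The 9 genes were spread along this trend, from SPRED1 (44.7% GC) and SPRY2 (46.8%) to SPRY4 (57.9%) and ETV4 (59.6%). Over the 9 genes, which share the same 3 libraries, Pearson's r between fold change and GC was -0.70 and -0.72 for 50 and 100 ng/mL, and Spearman's rho was -0.67 and -0.82. DUSP5 illustrates the middle of the range: its GC content was 55.1%, and the 860 genes within 1 percentage point of it had a median of 0.065 on the log2 scale at 50 ng/mL, next to 0.076 for DUSP5 itself. For SPRED1 the corresponding 972 genes had a median of 1.34, above its own 1.17, and for ETV5 the 873 genes had 0.82, equal to its own value at 50 ng/mL. Whether GC content had a part in these differences was not tested.

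**Figure D2:**
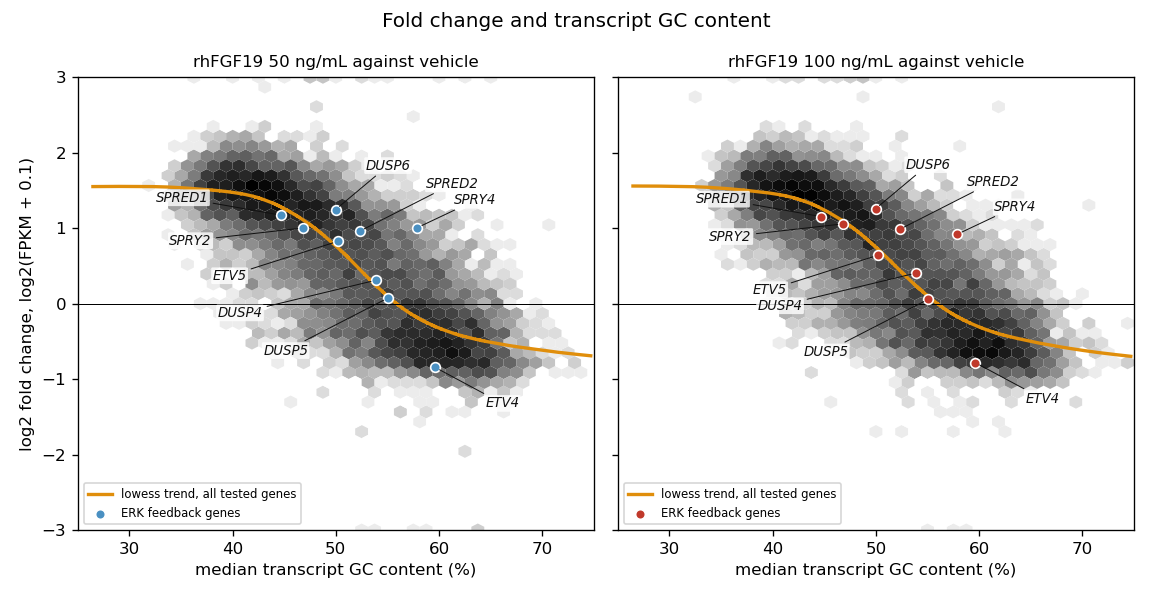
Log2 fold change against vehicle on the log2(FPKM + 0.1) scale (y axis) by median transcript GC content in percent (x axis), at 50 ng/mL (left) and 100 ng/mL (right). Grey hexagons are all genes that passed the filter, darker with more genes, with values past 3 drawn at 3; the line is the locally weighted trend, and 7 of the 9 labelled genes lay between the 10th and the 90th percentile of genes of like GC content, with SPRY4 above it and ETV4 just below it.

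Against genes of like GC content, SPRY4 stood highest and ETV4 lowest. The 929 genes within 1 percentage point of SPRY4 centred on -0.22 for 50 ng/mL (median), with a range from the 10th to the 90th percentile of -0.75 to 0.63, below the 1.01 of SPRY4. The 923 genes around ETV4 had a median of -0.36 and a range of -0.82 to 0.47, and ETV4 at -0.84 was just outside. DUSP6 at 1.25 lay inside its range of -0.26 to 1.44, and SPRED2 at 0.96 inside -0.54 to 1.24. SPRY4, however, has 6 listed transcripts whose GC content ran from 50.4% to 65.2%. Taking the longest of them (5349 bases, 50.4% GC), genes of like GC content had a median of 0.66 and a range of -0.43 to 1.33 at 50 ng/mL, with SPRY4 inside. For the longest transcript of ETV4, the lower bound was -0.83 for 50 ng/mL and -0.79 for 100 ng/mL, so ETV4 was just outside at the first dose and just inside at the second.

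With the trend on median GC content removed, the values of most of the 9 genes moved close to 0. SPRY4 was the only one past 2‐fold, with 1.19 and 1.09 at 50 and 100 ng/mL, and it did not pass, at 0.39 and 0.32, when the GC content of the longest transcript was used. That is 1 of 9 genes higher at each dose, against a background of 3.85% for 50 ng/mL and 3.39% for 100 ng/mL, and 0 of 9 lower, against 5.07% and 4.51%. DUSP6 read 0.48 and 0.51 and SPRED2 0.51 and 0.54. ETV4 read -0.54 and -0.49. SPRY2 (-0.11 and -0.041) and SPRED1 (-0.11 and -0.11) changed sign, although SPRY2 was above 0 (0.15 and 0.22) with the longest transcript. DUSP4, DUSP5 and ETV5 lay between -0.088 and 0.17. The median of the 9 genes was 0.068 and -0.039, respectively. The directions that held in every setting tried were DUSP6, SPRY4 and SPRED2 above 0 and ETV4 below 0. Changes of filter or pseudocount could not have turned a direction. Rescaling to TPM and setting a median to 0 shifted all genes by about the same amount, less than the differences of these genes. Only quantile normalization and the removal of trends therefore bear on this.

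**Figure D3:**
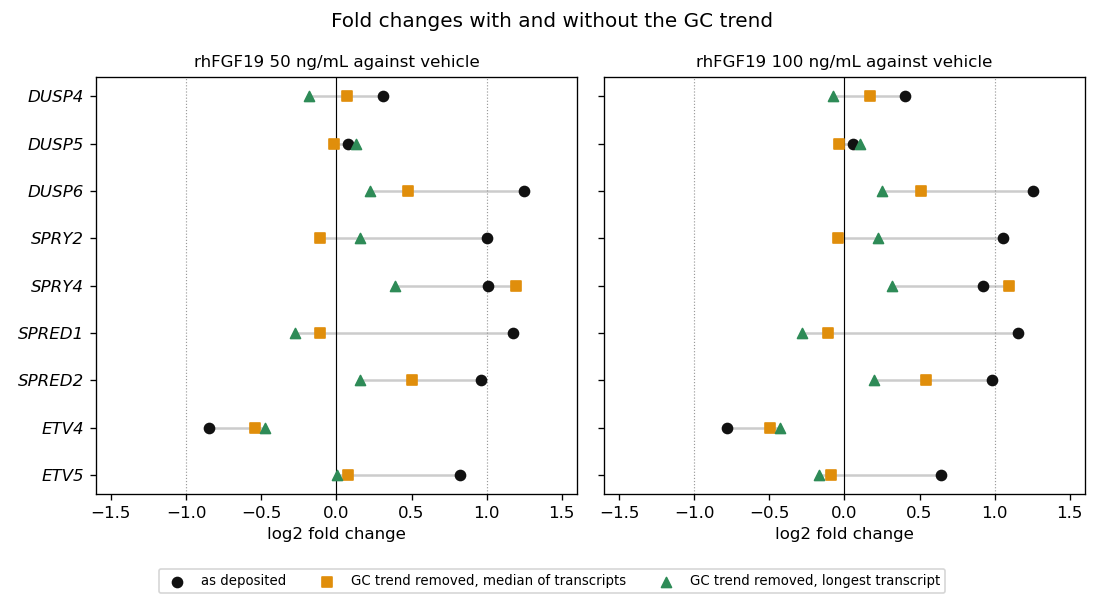
Log2 fold change against vehicle (x axis) of the 9 genes that passed the filter, at 50 ng/mL (left) and 100 ng/mL (right), as deposited (circles), after removal of the trend on median transcript GC content (squares) and on the GC content of the longest transcript (triangles), with dotted lines at 2‐fold. SPRED1 moved from 1.17 to -0.11 and -0.28 at 50 ng/mL and SPRY4 from 1.01 to 1.19 and 0.39, whereas ETV4 was below 0 in each.

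Between the doses, none of the 9 genes was more than 2‐fold apart, against 1.74% of all genes. The widest difference was that of ETV5, -0.18 on the log2 scale, followed by DUSP4 with 0.095 and SPRY4 with -0.086, and the smallest that of DUSP6 with 0.011. Over all genes that passed the filter, these differences had an SD of 0.34. The libraries differ in dose and are not replicates, so this SD holds both dose and library effects.

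Closest in pattern to ETV4, the gene with the highest mean level, were NUDT22 (39.22, 22.45 and 22.74 FPKM), YIF1B (40.29, 21.78 and 24.09) and TIMM13 (41.94, 22.25 and 23.43), at distances of 0.053 to 0.061 in log2(FPKM + 0.1) over the 3 libraries. Their GC contents ran from 62.1% to 64.0%, beside 59.6% for ETV4. Closest to DUSP6, the gene with the widest difference from vehicle, were OPTN (4.60, 10.99 and 11.03 FPKM), ARHGAP35 (4.76, 11.45 and 11.21) and SRP68 (4.74, 11.49 and 11.44). Their GC contents were 44.8%, 55.9% and 48.8%, beside 50.0% for DUSP6.

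Paralogs of these genes covered the rest of the same families. Of 10 paralogs, 6 passed the filter, and 2 of them, DUSP10 and DUSP16, were more than 2‐fold higher at each dose, beside 39.4% and 38.5% of all genes, and the medians over the 6 were 0.37 and 0.46 on the log2 scale. DUSP1, the founding nuclear phosphatase of the family, read 19.45, 25.27 and 28.78 FPKM. DUSP7, a cytosolic phosphatase like DUSP6, read 7.10, 9.11 and 9.10 FPKM. DUSP10, which acts on p38 and JNK, read 1.53, 3.48 and 3.68 FPKM, and SPRED3 was lowest with log2 fold changes of -0.12 and -0.31. ETV1, the third PEA3‐type factor, did not reach the filter (0.13, 0.39 and 0.38 FPKM). With the GC trend removed, no paralog passed 2‐fold, beside 3.85% and 3.39% of all genes higher and 5.07% and 4.51% lower. The medians of the paralogs were then 0.28 and 0.26.

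Of 16 other genes known as targets of ERK signalling, 12 passed the filter, 2 of them (EGR1 and EPHA4) more than 2‐fold higher at 50 ng/mL and 1 (EPHA4) at 100 ng/mL, beside the same shares of all genes, with medians of 0.31 and 0.30. FOSL1, an AP‐1 subunit whose protein ERK stabilises, was the most abundant at 445.89, 343.99 and 344.60 FPKM and had the lowest fold change, -0.37 at both doses. IER3, an immediate early gene, read 241.29, 208.43 and 215.27 FPKM, and EPHA4, an ephrin receptor, 0.33, 1.03 and 1.04 FPKM. With the GC trend removed, EPHA4 did not pass 2‐fold (0.44 and 0.46), and CCND1, the cyclin that drives entry into S phase, was the single gene of the list past it, with 1.39 and 1.41. The share of all genes higher was then 3.85% and 3.39%. CCND1, singled out after its values were seen, read 55.25, 103.92 and 106.40 FPKM. Its 6 listed transcripts ran from 50.3% to 66.4% GC, and its value with the GC content of the longest was not examined.

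The components of the cascade were divided. Of 22 adaptor, RAS, RAF, MEK, ERK and downstream genes, 20 passed. More than 2‐fold higher were 9 of them at 50 ng/mL and 8 at 100 ng/mL, beside 39.4% and 38.5% of all genes. More than 2‐fold lower were 0, beside 1.78% and 1.58% of all genes, and the medians were 0.86 and 0.81. PTPN11, the phosphatase SHP2 that relays receptor signals to RAS, read 3.87, 12.17 and 12.41 FPKM, with the highest mean fold change of the list (1.63 and 1.66). HRAS, at 72.02, 39.50 and 41.11 FPKM, had the lowest (-0.86 and -0.81), and the abundant SHC1 (112.38, 96.57 and 93.30 FPKM) and ARAF (69.16, 45.71 and 44.48 FPKM) were also lower in the rhFGF19 libraries, short of 2‐fold. With the GC trend removed, 0 of 20 passed 2‐fold in either direction, and the medians were -0.072 and -0.0092. Of all genes, 3.85% and 3.39% were then higher and 5.07% and 4.51% lower at 50 and 100 ng/mL. The contrast between ETV4 and ETV5 thus had a counterpart in a paralogous pair here, the ratio of MAP2K1 to MAP2K2, which encode the MEK kinases, being 0.42, 1.19 and 1.08.

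Among 10 other brakes on RAS and ERK signalling, all passed, and 6 and 5 were more than 2‐fold higher at 50 and 100 ng/mL, beside 39.4% and 38.5% of all genes. More than 2‐fold lower were 0 of them, beside 1.78% and 1.58% of all genes, and the medians were 1.12 and 1.01. PEA15, which keeps ERK in the cytoplasm, read 184.90, 215.25 and 209.56 FPKM, and PEBP1, an inhibitor of signalling to MEK, 147.84, 197.13 and 188.23 FPKM. RASA1, a RAS GTPase activating protein, had the highest fold change (1.89, 5.64 and 5.45 FPKM) and LZTR1, an adaptor for the degradation of RAS proteins, the lowest (12.17, 7.85 and 8.18 FPKM). With the GC trend removed, 0 of 10 passed 2‐fold, and the medians were 0.11 and 0.066. Of all genes, 3.85% and 3.39% were then higher and 5.07% and 4.51% lower, so few would be looked for in a list of this size.

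FGFR1 was the most abundant of the FGF receptors listed, with 8.86 FPKM for vehicle and 15.97 and 14.69 FPKM for 50 and 100 ng/mL. FGFR3 read 1.20, 1.23 and 1.09 FPKM and FGFR4, the receptor that FGF19 favours, 1.79, 1.21 and 1.31 FPKM. KLB was listed at 0 in vehicle and at 50 ng/mL and at 0.02 FPKM at 100 ng/mL. FGFR2 and KL were not analysed here. None of the 3 receptors that passed the filter was 2‐fold apart from vehicle, as deposited or with the GC trend removed. As deposited, 39.4% and 38.5% of all genes were higher and 1.78% and 1.58% lower at 50 and 100 ng/mL. With the trend removed, 3.85% and 3.39% were higher and 5.07% and 4.51% lower. Relative to FGFR1, ETV4 was 4.54 times as abundant in vehicle and 1.40 and 1.59 times with rhFGF19, while the ratio of DUSP6 to FGFR1 was 0.53, 0.70 and 0.77.

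As to the libraries, the FPKM values summed to between 276690 and 302243, and 8890 genes reached 1 FPKM in vehicle against 10894 and 10925 with rhFGF19. The depth of the libraries is unknown, since FPKM values keep no counts. Of 12 stellate and fibroblast markers, 9 passed the filter and their list summed to 1104 to 1167 FPKM, led by VIM (438.65, 654.31 and 648.66 FPKM). Of the 9, 6 were higher with rhFGF19 and 3 were lower, namely TIMP1 (308.41, 183.64 and 192.97 FPKM), TAGLN (222.65, 118.02 and 125.65 FPKM) and ACTA2 (8.55, 8.01 and 7.74 FPKM). Among all genes that passed the filter, 65.4% and 65.6% were higher at 50 and 100 ng/mL, so this count was near the background. The marker LRAT, which stores retinol in quiescent stellate cells, was listed at 0 in all 3 libraries, and DES and COL1A2 were at or below 0.14 FPKM. Of 4 epithelial markers, EPCAM was not analysed here and KRT8 and KRT18 passed, their list summing to 503 FPKM in vehicle and to 308 and 302 with rhFGF19, whereas CDH1 was at most 0.01 FPKM. Like ETV4, the keratins were therefore highest in vehicle, and their part in the result was not tested. Hepatocyte markers summed to 11.3 to 12.5 FPKM, led by SERPINA1, endothelial markers to 0.40 to 0.50 FPKM, and blood markers to 4.44 FPKM in vehicle and 2.79 and 2.57 with rhFGF19, nearly all of it CD14, with PTPRC not analysed here. In bulk libraries, fewer cells of a type and less RNA per cell cannot be told apart.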

How the data were processed

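Poly(A) mRNA of LX‐2 cells was sequenced as paired ends, with 1 library each for vehicle, 50 and 100 ng/mL rhFGF19. The authors deposited FPKM values, 1 per gene and library to 2 decimals. The submitters' processing notes name HISAT2 2.0, StringTie 1.3.0 and Bowtie 0.12.2 and the builds hg19 and mm8 without roles. The deposited coordinates overlapped GRCh38 for 99.9% of 25531 identifiers found in GENCODE 29, and are used as GRCh38. The paper's methods describe logCPM, which was not used here.

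From the deposited values, differences of log2(FPKM + 0.1) between single libraries were computed for the 12447 genes that averaged 0.5 FPKM or more, and counted above 2‐fold. With 1 library per group, no test was run, and the depth and hence the counting precision are unknown. GC content and length were medians over the transcripts listed for a gene, read from GENCODE 29. A locally weighted regression (lowess, span 0.3) gave the trends that were subtracted. Neighbours in GC content lay within 1 percentage point. The alternatives were pseudocounts of 1 and 0.01, no filter, a mean of at least 1 FPKM, the median of genes of at least 1 FPKM set to 0, TPM, quantile normalization, removal of GC, length or both trends, and a 1.5‐fold threshold. The GC content of the longest transcript was added after seeing the data.

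The 10 genes and the lists were chosen with earlier results of these data known. The genes named from each other list were the 2 with the highest mean FPKM and those with the highest and lowest mean fold change, plus every receptor, and, for pattern, the 3 genes nearest by Euclidean distance among those averaging 1 FPKM or more. Other genes, such as those that make up a short count, were named after their values were seen. Some genes are not reported here. The computation was tested on simulated data. Python 3.11.15, NumPy 2.4.6, pandas 2.3.3, SciPy 1.17.1, statsmodels 0.14.6 and Matplotlib 3.10.9 were used.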

Additional observations from a re-analysis of the deposited data

How the results depend on the processing

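The count of genes more than 2‐fold higher, 4 at 50 ng/mL and 3 at 100 ng/mL, was 1 at each dose with a pseudocount of 1, with the median of genes of at least 1 FPKM set to 0, with the GC trend removed and with the GC and length trends removed. It was 0 at each dose after quantile normalization, removal of the length trend, or removal of the GC trend of the longest transcript. It was 5 at each dose after rescaling to TPM, against 44.4% and 43.1% of all genes at 50 and 100 ng/mL. At a 1.5‐fold threshold it was 6 at each dose, against 50.9% and 50.7%. The count of 1 stood against 17.6% and 16.7% with a pseudocount of 1, and 30.1% and 29.6% with that median set to 0. It stood against 3.85% and 3.39% with the GC trend removed, and 4.04% and 3.53% with both trends removed. The count of 0 at 50 ng/mL stood against 9.49% (quantile), 14.1% (length) and 3.41% (longest transcript). The median log2 fold change, 0.96 and 0.92, was 0.32 and 0.24 with quantile normalization, 0.27 and 0.21 once the length trend was taken out, 0.068 and -0.039 for the GC trend, -0.042 and -0.020 for both, and 0.13 and 0.10 with the GC trend of the longest transcript removed. SPRY2 turned to -0.11 and -0.041 with the GC trend removed and to -0.22 and -0.14 with both trends removed. SPRED1 turned to -0.11 at each dose with the GC trend removed, to -0.27 at each dose with both, and to -0.28 and -0.29 with that of the longest transcript. The cause of these changes was not tested. ETV4 gained a call of more than 2‐fold lower, at -1.38 and -1.31 once the length trend was taken out and at -1.07 for 50 ng/mL with that median set to 0. Of 198 fold changes of single genes under the alternatives, 130 moved by less than 0.34, the SD of the differences between the rhFGF19 libraries. These 130 include the values under the changed filters, which could not move. Some values near 0, such as that of DUSP5, crossed 0. Of 58 recomputed counts and medians, 26 moved by more than 1.5 times (counts) or that SD (medians). No library could be left out and no paired analysis was possible because each condition had 1 library. Without counts, no precision could be given for low genes such as SPRY1.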
